A study of Rattus norvegicus with 30 samples.

Results

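The genes described are 9 interferon-stimulated genes of the rat heart: Irf7, Isg15, Oas1a, Oasl, Mx1, Mx2, Ifit2, Ifit3 and Rsad2. They were taken as the rows that carry these names in the deposited expression tables, which gave 12 rows at each age out of 27408, 27383 and 26553 rows at 8, 21 and 78 weeks, and the 12 rows rest on 15 of the 41012 probes of the array. Whole hearts came from untreated F344 rats, an inbred strain from a single breeding colony, of both sexes and on one diet, at 8 weeks (young), 21 weeks (adult) and 78 weeks (old). Each of the 6 groups had 5 hearts, ground one by one, and each heart was hybridised to 1 array in 1 colour (Cy3), so 30 arrays were read. Levels are on a log2 scale on which 0 is the 75th percentile of the background-corrected signals of an array, so a difference of 1 is a 2-fold difference. A whole heart holds muscle, vessels, blood and immune cells, and in such RNA fewer cells of a type cannot be told apart from less RNA per cell.

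Oasl was picked for its difference between the sexes at 21 weeks, and the values of the other genes at that age come from the same 10 hearts. The 21-week differences are therefore given as a description, with no test. Tests of differences were kept to 8 weeks, to 78 weeks and to the change between these ages. Correlations with Irf7 were tested at each age, on deviations from the mean of each age and sex. Those at 21 weeks come from the hearts in which Oasl was chosen.

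Interferons are secreted when a cell detects the nucleic acid of a virus. They bind receptors that act through the kinases Jak1 and Tyk2 on transcription factors, Irf9 among them, which bind interferon-responsive elements in the promoters of many genes. In tissue with no infection these genes are transcribed at a basal level, set partly by low amounts of interferon. Irf7 is a transcription factor that amplifies the response. Isg15 is a ubiquitin-like protein, Oas1a makes the oligoadenylates that activate RNase L, Oasl belongs to the same family, Mx1 and Mx2 are dynamin-like GTPases, Ifit2 and Ifit3 bind viral RNA or act on its translation, and Rsad2 (viperin) is a radical SAM enzyme that makes a chain-terminating nucleotide.

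The probes decide what is read for these genes. The array's annotation placed the Irf7 probe used here at chr1:201607889-201607948 of the rn3 build and another Irf7 row's probe, made from an expressed sequence tag, at chr1:201607899-201607958. The capitals mark 45 bases that the pair share as reverse complements, so the expressed-sequence probe reads the opposite strand. It was not well above background on any of the 30 arrays. The other probe made from that expressed sequence also reads the opposite strand and was well above background on 20 arrays.
Irf7 probe: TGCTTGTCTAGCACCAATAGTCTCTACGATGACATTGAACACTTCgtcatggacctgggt
Irf7 expressed-sequence probe: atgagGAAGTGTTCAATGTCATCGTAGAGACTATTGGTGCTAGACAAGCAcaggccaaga

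The Oasl and Isg15 probes are shown because the sex comparison turns on one and the variation between hearts on the other. The Oasl probe lay at chr12:42821702-42822543, a stretch of 842 bases for a probe of 60, and the Isg15 probe at chr5:173045169-173045228, both in rn3. No annotation of that build was used here to call exons.
Oasl probe: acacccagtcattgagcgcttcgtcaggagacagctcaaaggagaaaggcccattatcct
Isg15 probe: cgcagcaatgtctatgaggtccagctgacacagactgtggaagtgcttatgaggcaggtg

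Because these genes are defined by a shared response, their promoters were searched for a core of the interferon-stimulated response element, GAAA followed by any 2 bases and GAAA again, on both strands of the 250 bases before each start (RefSeq, GRCr8 build). Promoters of 6 of the 9 genes were in the sequence table, and 4 of the 6 held the motif, against 1140 of 33469 promoters of the same length (3.41%). Irf7, Ifit3 and Rsad2 held it on the strand opposite to the gene, and Oas1a held 2 overlapping copies on its own strand. The Mx1 and Oasl windows held no match to these letters. The windows below give 60 bases around each match, with the match in capitals, from chr1:205800058-205800117 (minus strand) for Irf7, chr1:241527257-241527316 (plus) for Ifit3, chr6:48788233-48788292 (minus) for Rsad2 and chr12:41330403-41330462 (plus) for Oas1a.
Irf7 promoter: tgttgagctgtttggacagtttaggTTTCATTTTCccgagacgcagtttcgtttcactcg
Ifit3 promoter: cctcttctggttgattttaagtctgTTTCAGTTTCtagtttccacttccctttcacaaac
Rsad2 promoter: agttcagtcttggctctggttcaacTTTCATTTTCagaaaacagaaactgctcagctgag
Oas1a promoter: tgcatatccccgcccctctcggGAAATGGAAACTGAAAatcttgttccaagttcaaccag

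Across the series, the 75th percentile of the processed signal ran from 39.9 to 171.3 per array, and 17223 to 24342 spots per array were well above background. The weakest array was male replicate 2 at 21 weeks. At 8 and 21 weeks, 3 probes separated all males from all females by more than 3 log2 units (2 probes highest in males, the other in females). At 78 weeks the array labelled female replicate 2 read as a male on all 3 probes and the array labelled male replicate 3 read as a female, so the 78-week sex results of the 9 genes are given with and without them. Female replicate 4 at 78 weeks stood apart from the other 4 arrays of its group on 10.2% of its measured probes and male replicate 4 on 6.98%, against 0.172% to 3.00% for the other 28 arrays. Heart muscle markers were well above background on 29 or 30 of the 30 arrays (10 of 10 genes).

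**Figure D1:**
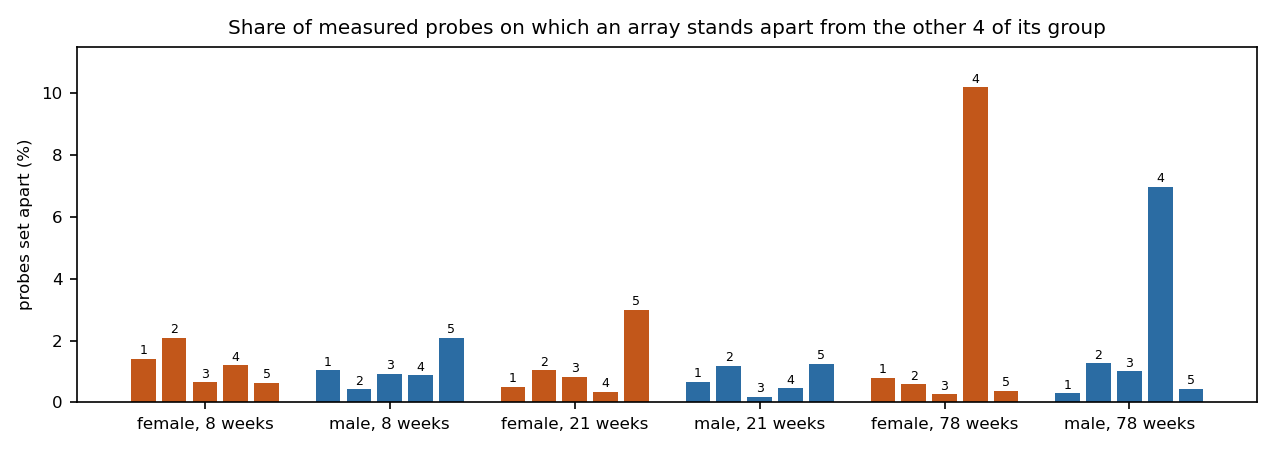
Share of measured probes (y axis, percent) on which an array was the highest or lowest of its group of 5 by Dixon's criterion, for each of the 30 arrays (bars, replicate number above each bar; orange females, blue males). Female replicate 4 at 78 weeks, at 10.2%, and male replicate 4 at 78 weeks, at 6.98%, stand above all others.

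Irf7, Isg15, Oas1a, Rsad2 and Ifit2, 5 of the 9 genes, cleared the scanner's background test on all 30 arrays. Mx2 did so on 29 arrays and Ifit3 on 20. Mx1 was above background on 1 array and Oasl on 3, all of them from 8-week males, so elsewhere these genes were not well above background. The other probes of Irf7, Ifit2 and Rsad2 were dim, with at most 20 arrays well above background, and their correlation with the main probe of the gene over 30 hearts ran from 0.006 to 0.398.

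**Figure D2:**
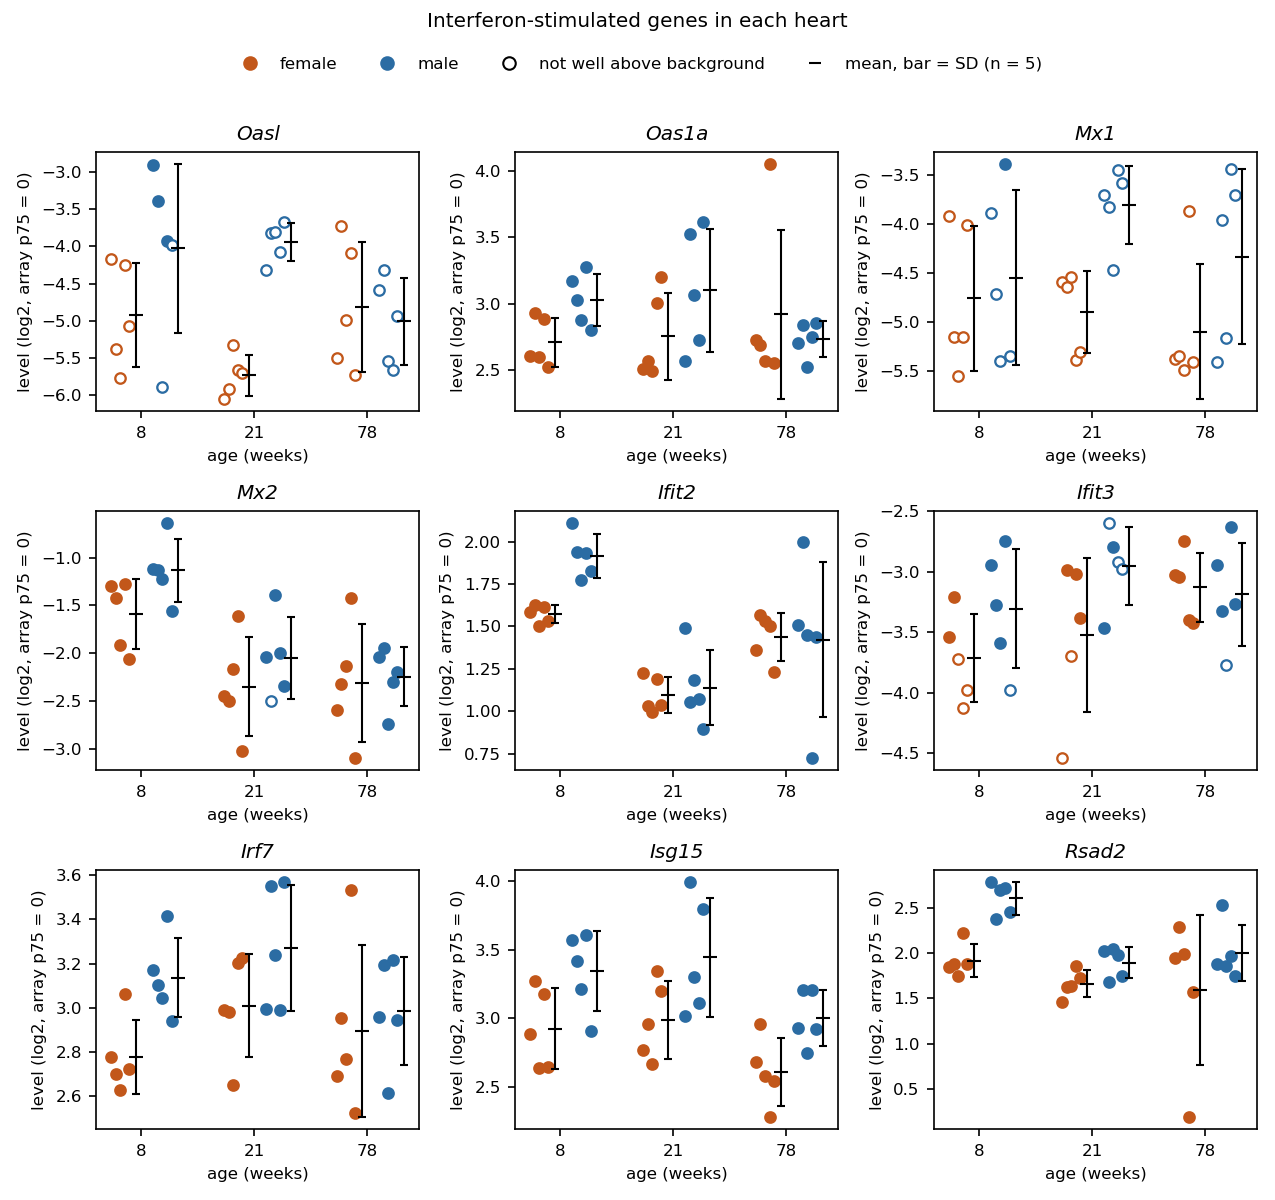
Level of each gene in every heart (y axis, log2 with the 75th percentile of the array at 0, each panel with its own range) by age in weeks (x axis), females orange and males blue, open circles where the probe was not well above background, black bars mean ± SD of 5 hearts. Oasl and Mx1 are open on nearly all arrays, while Irf7, Isg15, Oas1a, Rsad2 and Ifit2 are filled on all 30.

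At 8 weeks all 9 genes had a higher mean in males, and in Rsad2 and Ifit2 the sexes did not overlap. Over the whole array 42.5% of probes had a higher mean in males. None of the 9 passed limma's test adjusted over all probes, where 27 of 41002 probes passed (0.0659%).

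Rsad2 gave 1.85, 1.88, 1.75, 2.23 and 1.88 in the 5 female hearts and 2.79, 2.38, 2.70, 2.72 and 2.46 in the 5 male hearts. Every male lay above every female. The difference, female minus male, was -0.69 ± 0.12 (SE), or 1.62-fold higher in males, with limma's adjusted p = 0.158 and a two-sided exact permutation p = 0.00794, the smallest that 5 against 5 allows. Rsad2 passed limma's test with normexp background correction (adjusted p = 0.0143), with the raw median signal (0.0229) and with dim probes left out (0.0442). Normexp here also added an offset of 50 to every signal, which narrows the differences of dim probes. A dim Rsad2 probe on the same strand, at chr6:44106562-44109705 of rn3 and above background on 2 arrays, differed by -0.75 ± 0.30 (SE; adjusted p = 0.927), and the 2 probes on the opposite strand, never above background, by 0.12 and -0.44.
Rsad2 dim probe: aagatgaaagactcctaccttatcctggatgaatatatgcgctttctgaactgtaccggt

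Ifit2 was 1.58, 1.63, 1.50, 1.62 and 1.53 in females and 2.11, 1.94, 1.77, 1.93 and 1.83 in males. The groups did not overlap here either, with a difference of -0.34 ± 0.08 (SE), adjusted p = 0.483 in limma and an exact permutation p = 0.00794. Rsad2 and Ifit2 were thus 2 of the 9 genes with every male above every female, where 0.573% of all probes at 8 weeks had that order.

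Irf7 was 2.78, 2.70, 2.63, 3.06 and 2.72 in females and 3.17, 3.11, 3.04, 3.42 and 2.94 in males. Female replicate 4 lay above 2 males, and the other 4 females lay below all males. The difference was -0.36 ± 0.11 (SE), 1.28-fold higher in males, with an exact permutation p = 0.0238 and adjusted p = 0.927 in limma.

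Isg15 was 2.89, 3.27, 2.64, 3.18 and 2.65 in females and 3.57, 3.42, 3.21, 3.61 and 2.90 in males. Male replicates 3 and 5 lay within the female range, and the other 3 males lay above it. The difference was -0.42 ± 0.18 (SE; exact permutation p = 0.0556, n = 5 per sex). Oas1a was 2.61, 2.93, 2.60, 2.89 and 2.52 in females and 3.17, 3.02, 2.87, 3.27 and 2.80 in males. Male replicates 3 and 5 fell within the female range and the other 3 lay above it, with a difference of -0.32 ± 0.12 (SE; exact permutation p = 0.0476). Mx2 differed by -0.46 ± 0.21 (exact permutation p = 0.0714) and Ifit3, above background in 6 of the 10 hearts, by -0.41 ± 0.25 (exact permutation p = 0.175). Oasl and Mx1 were not above background in any female at this age, and no bound on a fold could be set for either.

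Without adjustment, 5 of the 9 genes (Rsad2, Ifit2, Irf7, Oas1a and Isg15) were higher in males at p under 0.05 in limma, against 2.41% of all probes. The genes are read from the same 10 hearts and are not independent of each other. Each slide of 4 arrays held both sexes, and with slide as a block no gene passed (Rsad2 adjusted p = 0.299 in limma). On every slide the females were in positions 2 and 4 and the males in positions 1 and 3, so position and sex cannot be told apart. Among other cell markers, the 4 red cell genes had a median difference of -0.69, with none of the 4 higher in females. The 11 macrophage genes had a median of -0.015, with 4 above 0, and the sum of 10 of them ran from 44.5 to 49.9 in females and from 43.3 to 55.1 in males, in multiples of the 75th percentile. The part of these cells in the differences was not tested.

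At 21 weeks Oasl gave -6.06, -5.92, -5.33, -5.66 and -5.70 in females and -4.31, -3.82, -3.80, -4.07 and -3.67 in males. Every male lay above every female, with a difference of -1.80 ± 0.19 (SE), but the probe was not well above background on any of these 10 arrays, and 4 of the 5 female values were the scanner's substitutes for signals too close to background. With normexp the difference was -0.49 and with the raw median signal -0.51. Dim probes as a whole had higher male values on this scale at this age. Of 17742 probes that were never above background at 21 weeks, 91.8% had a higher mean in males, and the median difference of all probes was -0.23, against -0.02 after quantile normalization and -0.32 after normexp.

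All 9 genes had a higher male mean at 21 weeks, where 70.5% of all probes did, and with normexp 4 of the 9 did. Mx1, also below background, had no overlap between the sexes either (-1.09), an order that 1.38% of all probes had. Nothing is read from this share, since Oasl was chosen for its difference in these hearts. The 5 genes above background on every array differed less, from -0.46 for Isg15 to -0.044 for Ifit2, with Oas1a at -0.34, Irf7 at -0.26 and Rsad2 at -0.23. With normexp all 5 turned to the female side, at 0.077 for Isg15, 0.12 for Ifit2, 0.33 for Oas1a, 0.25 for Irf7 and 0.10 for Rsad2. For Isg15 the females gave 2.77, 2.96, 2.67, 3.35 and 3.20 and the males 3.01, 3.99, 3.30, 3.11 and 3.79. The highest 2 values were those of male replicates 2 and 5, and the remaining males lay among the females.

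At 78 weeks 5 of the 9 genes had a higher male mean with all arrays, where 47.1% of all probes did. With the 2 arrays whose sex probes oppose their labels removed it was 8 of the 9 (48.9% of probes), all but Oas1a. Without female replicate 4 as well it was all 9 (45% of probes), but that heart was left out after seeing the data. Isg15 alone of the 9 was higher in males at an unadjusted p under 0.05, against 2.56% of all probes. No gene and no probe of 41006 passed limma's adjusted test (0%), while 1883 probes had an unadjusted p under 0.05. No gene had every male above every female (0.285% of all probes).

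Isg15 had the most separated sexes at this age, with 2.68, 2.96, 2.58, 2.28 and 2.54 in females and 2.93, 3.21, 2.75, 3.21 and 2.92 in males. Only female replicate 2, one of the arrays at odds with its label, reached the males. The difference was -0.40 ± 0.14 (SE), with an exact permutation p = 0.0318 and limma's adjusted p = 0.931. Without the 2 arrays at odds with their labels it was -0.55, with no overlap and an exact permutation p = 0.0286, the smallest that 4 against 4 allows. How many of all probes had no overlap on these arrays was not counted. The array labelled male was higher in all 5 pairs of the same replicate number. An exact permutation of the signs, added after seeing the data, gave p = 0.0625, the smallest that 5 pairs allow. Pairs 2 and 3 hold the arrays at odds with their labels. By the sex probes neither pair sets a female against a male, so this p is not a test of sex in 5 pairs. Isg15 was on the same side at 8 and 78 weeks, and no gene passed the test of a change in the sex difference between these ages (limma's sex by age term, adjusted p = 1 for each of the 9; 0 of 40999 probes passed, 1033 had an unadjusted p under 0.05).

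Irf7 was 2.69, 2.95, 2.77, 3.53 and 2.52 in old females and 2.96, 3.20, 2.61, 3.22 and 2.95 in old males. It differed by -0.092 with all arrays, by -0.20 without the 2 arrays and by -0.42 without female replicate 4 as well. Leaving out that heart was a choice made after seeing the data. The sexes then did not overlap, since the heart left out, at 3.53, was the remaining female that lay above the males. The exact permutation p = 0.0286, the smallest that 3 against 4 allows, follows from that choice and is no test of sex. The share of all probes with no overlap on those arrays was not counted. Female replicate 4 was the highest of all 10 hearts for Irf7 (3.53) and Oas1a (4.05) and the lowest for Rsad2 (0.18) and Isg15 (2.28). Oas1a was 2.73, 2.69, 2.57, 4.05 and 2.55 in old females and 2.71, 2.84, 2.52, 2.75 and 2.86 in old males. The difference was 0.18 with all arrays (exact permutation p = 0.873), 0.19 without the 2 arrays and -0.17 without the 3 arrays. Rsad2 was 1.95, 2.29, 1.99, 0.18 and 1.57 in old females and 1.88, 2.53, 1.86, 1.97 and 1.75 in old males, which overlapped also without female replicate 4. It differed by -0.40 ± 0.36 (SE; exact permutation p = 0.413), by -0.61 without the 2 arrays and by -0.20 without the 3. Mx2 differed by -0.071, Ifit2 by 0.016 and Ifit3 by 0.061, each by less than its SE of 0.20 to 0.28, and without the 2 arrays by -0.19, -0.0095 and -0.11.

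In female replicate 4 the summed level of 7 lymphocyte genes was 1.91, against 5.5 to 9.25 in the other 4 old females. Its sums for macrophage genes (39.7) and for 42 other interferon-stimulated genes (152.1) were the lowest of the old females. Over all old hearts the macrophage sums were 39.7 to 61.0 in females and 57.0 to 82.0 in males, and the macrophage genes had a median difference of -0.40, with 1 of 11 higher in females. Without the 2 arrays at odds with their labels the male sums were 65.2 to 82.0, above all female sums, and the median difference was -0.47. The part of these cells in the sex differences was not tested.

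**Figure D3:**
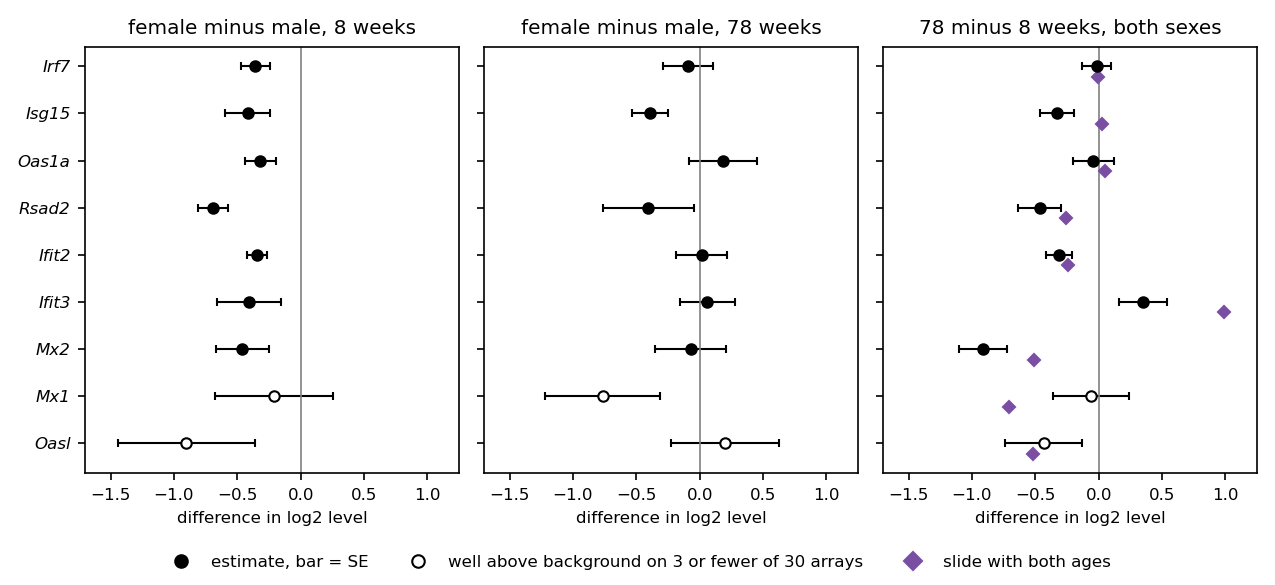
Difference in log2 level (x axis) of each gene (y axis) between females and males at 8 and 78 weeks and between 78 and 8 weeks, points with SE bars. Open points are Oasl and Mx1, which were above background on 3 arrays or fewer, and purple diamonds are the mean difference on the slide that held both ages. At 8 weeks all 9 points lie left of 0, at 78 weeks, with all arrays, they lie on both sides, and Mx2 has the largest age difference of the filled points.

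Between 8 and 78 weeks Mx2 fell and no other gene passed the test. It gave -1.30, -1.43, -1.91, -1.27 and -2.05 in young females, -1.12, -1.13, -1.22, -0.64 and -1.56 in young males, -2.59, -2.32, -2.14, -1.42 and -3.09 in old females and -2.04, -1.95, -2.73, -2.30 and -2.19 in old males. All old males lay below all young males, and the female groups overlapped because of old replicate 4. The change was -0.91 ± 0.19 (SE), 1.88-fold lower in old hearts, with limma's adjusted p = 0.00205. Mx2 was 1 of the 9 genes called lower, where 4.07% of all probes were (8.85% in either direction), and none of the 9 was called higher, where 4.78% of all probes were.

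Within males Mx2 changed by -1.11 (limma, adjusted p = 0.0158) and was the 1 gene of 9 called, where 1.8% of probes were lower, 1.86% higher and 3.65% either way. Within females it differed by -0.72 (adjusted p = 0.208) and none of the 9 was called, where 1.06% of probes were lower, 1.22% higher and 2.28% either way. The difference between the sexes in this change was 0.39 ± 0.38 (SE) and did not pass. These values include the 2 old arrays at odds with their labels. Without them the Mx2 mean was -2.31 in old females and -2.12 in old males, against -2.31 and -2.24 with all arrays.

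Each age was a batch of its own, so age cannot be told apart from batch, except on the slide that held 1 male and 1 female of both ages. There the old minus young difference of Mx2 was -0.54 in the females and -0.48 in the males, and with slide as a block its adjusted p in limma was 0.859. With scan day as a block it kept its change (-0.93, adjusted p = 0.00998). With normexp it was -0.12 (adjusted p = 0.375). The median of all probes moved by 0.13 between these ages, and by 0.29 with normexp and 0.004 with quantile normalization, where Mx2 changed by -0.999.

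Ifit2 was 1.36, 1.57, 1.53, 1.50 and 1.23 in old females and 1.51, 2.00, 1.45, 0.72 and 1.44 in old males, against the young values above. The old males other than replicate 2 lay below all young males, and the female groups overlapped. Its old minus young difference was -0.31 ± 0.10 (SE; limma, adjusted p = 0.0614), and it passed with quantile normalization (0.0486), with dim probes left out (0.0267), with slide as a random block (0.0413), with the 8 and 78-week arrays alone (0.0481) and without male replicate 2 at 78 weeks. With scan day as a block it was -0.17 (0.318).

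Rsad2 differed by -0.47 ± 0.17 (SE; limma, adjusted p = 0.0881) and Isg15 by -0.33 ± 0.13 (adjusted p = 0.133). Rsad2 passed with the raw median signal (0.0287), with dim probes left out (0.0450) and without female replicate 2 at 78 weeks. With scan day as a block it was -0.18 (0.487), and without female replicate 4 at 78 weeks -0.29 (0.0763). Irf7 (-0.017) and Oas1a (-0.042) differed by less than their SE of 0.12 and 0.16. With Mx2, 4 of the 9 had an unadjusted p under 0.05 and were lower in old hearts, against 8.89% of all probes. On the shared slide Ifit2 was -0.24 and Rsad2 -0.26, and Isg15 was 0.027. Ifit3 was 0.35 ± 0.19 higher (adjusted p = 0.231) and 0.99 higher on the shared slide. At 21 weeks, given as a description because these arrays share the batch limit and the values that chose Oasl, the difference from 8 weeks was -0.63 for Ifit2, -0.84 for Mx2 and -0.48 for Rsad2, averaged over both sexes.

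The hearts of 1 age and sex differed among themselves, and the genes were next compared in these deviations, taken from the mean of each age and sex. At 8 weeks all 21 pairs of the 7 genes that were above background on at least 20 arrays had r above 0. Their median was 0.684, with a range from 0.082 (Rsad2 with Ifit3) to 0.952 (Isg15 with Oas1a). With normexp, r with Irf7 at 8 weeks was -0.6 for Ifit3 and ran from 0.587 (Rsad2) to 0.928 (Oas1a) for the others. At 21 weeks the median was 0.109, with 11 of 21 pairs above 0, and at 78 weeks it was 0.113, with 13 of 21 above 0, or 0.559 with 20 of 21 above 0 when female replicate 4 was left out. The 7 genes come from the same arrays, so pairs share both hearts and array error.

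**Figure D4:**
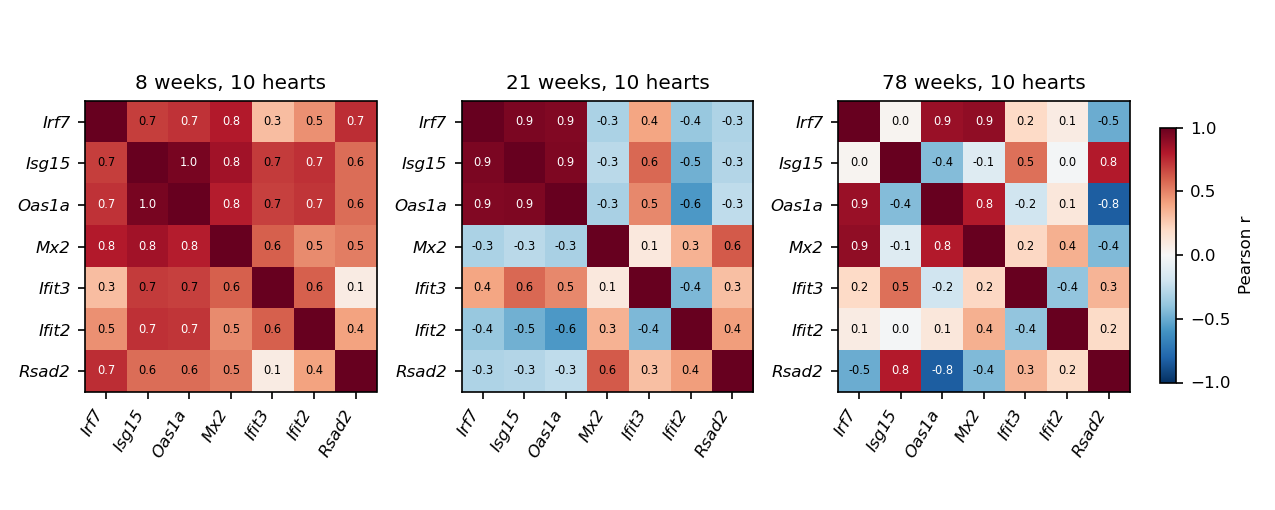
Pearson r between the deviations of 7 genes over the 10 hearts of each age (color scale from -1 to 1, values printed in each cell). At 8 weeks every cell is positive (with normexp Ifit3 turns negative against Irf7). At 21 weeks Irf7, Isg15 and Oas1a form one positive block apart from Mx2, Ifit2 and Rsad2. There, with normexp, Rsad2 and Ifit2 turn positive against Irf7. At 78 weeks Rsad2 and Oas1a are opposed.

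At 8 weeks Irf7 correlated with Mx2 (r = 0.794, exact permutation p = 0.00924; rho = 0.782, p = 0.0142), Rsad2 (r = 0.735, p = 0.0329; rho = 0.636, p = 0.0764), Oas1a (r = 0.726, p = 0.0211; rho = 0.709, p = 0.0416) and Isg15 (r = 0.693, p = 0.0367; rho = 0.697, p = 0.0425). Without the 2 hearts farthest from the median of Irf7, which were replicate 4 of each sex, the values were 0.649, 0.487, 0.507 and 0.676, and none of the 4 kept an exact p under 0.05 over the 8 hearts left. The r of Isg15 hardly moved, and those of Oas1a and Rsad2 fell. That of Mx1, not above background in any female, was 0.847 without these hearts (exact permutation p = 0.0104). Ifit2, Ifit3, Oasl and Mx1 gave 0.457, 0.309, 0.438 and 0.518 with all hearts, and 0.758, -0.6, -0.398 and -0.435 with normexp. Of the 8 genes set against Irf7, 4 had r above 0 and p under 0.05, against 0.981% of all probes. None passed after adjustment over all probes (adjusted p = 0.865), and no probe of the array did. The 75th percentile of the array correlated with Irf7 at 0.467 and with Mx2 at 0.628.

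At 21 weeks Isg15 (r = 0.938, exact permutation p = 0.00167; rho = 0.855, p = 0.00951) and Oas1a (r = 0.929, p = 0.00194; rho = 0.891, p = 0.00549) followed Irf7. Their r without the 2 hearts farthest from the median of Irf7 was 0.957 and 0.964. Rsad2, Ifit2 and Mx2 gave -0.308, -0.379 and -0.319. With normexp Rsad2 gave 0.907 and Ifit2 0.727, while Mx2 gave -0.856, so the sign for Rsad2 and Ifit2 depends on the processing. The part of the background correction and that of the offset of 50 were not told apart. These were 2 of the 8 genes, where 9.25% of all probes had an r above 0 and p under 0.05, and adjusted over all probes Isg15 had 0.132 and Oas1a 0.138. The hearts that set the high end were male replicates 2 and 5, with Irf7 at 3.55 and 3.57, Isg15 at 3.99 and 3.79, and Oas1a at 3.53 and 3.61. Their arrays had a 75th percentile of 39.9 and 72.1, against 65.6 (male replicate 4) to 123.1 (female replicate 1) in the others. It correlated with Irf7 at -0.288, with Isg15 at -0.552 and with Oas1a at -0.427. The part of this scaling in the correlations was not tested.

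Without male replicate 2, the weakest array, r with Irf7 was 0.941 for Isg15 and 0.913 for Oas1a, an alternative chosen after seeing the data. Male replicates 2 and 5 also had the highest summed macrophage genes (103.2 and 104.4, against 54.7 to 83.7 in the other 8 hearts) and the highest sums of 42 other interferon-stimulated genes (287 and 295, against 198 to 250). The 4 red cell genes summed to 720.7 and 521.8 in them, against 238 to 420 in the others, and heart muscle genes to 9604 and 6534, against 3786 to 6392. Endothelial sums were the lowest of the 10 hearts in them (10.17 and 11.14, against 11.48 to 15.37). The part of these cells in the correlation was not tested.

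At 78 weeks Mx2 (r = 0.885, exact permutation p = 0.00424; rho = 0.721, p = 0.033), Oas1a (r = 0.860, p = 0.0102; rho = 0.673, p = 0.0281) and Mx1 (r = 0.767, p = 0.0278; rho = 0.721, p = 0.0291) followed Irf7, which is 3 of 8 genes against 3.54% of all probes. None passed adjustment over all probes (0.637). Without the 2 farthest hearts, female replicate 4 and male replicate 3, r was 0.573, 0.327 and 0.362, so these relations rest on those hearts. Male replicate 3 is one of the arrays at odds with their labels, and its deviation was taken from the mean of labelled males. Without both such arrays and female replicate 4, r was 0.501 (Mx2), 0.156 (Oas1a), 0.43 (Mx1), 0.862 (Isg15) and 0.774 (Rsad2). The choice of these arrays was made after seeing the data. Mx1 was not above background in any old heart. For Isg15 (r = 0.025) and Rsad2 (r = -0.494) 1 heart decided the value: without female replicate 4, r was 0.927 and 0.704, and for Mx2 and Oas1a it was 0.742 and 0.703. With normexp and all 10 hearts r was -0.703 for Mx2, -0.812 for Mx1, 0.865 for Oas1a, 0.867 for Isg15 and 0.443 for Rsad2, so that of all these Oas1a alone kept its value.

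**Figure D5:**
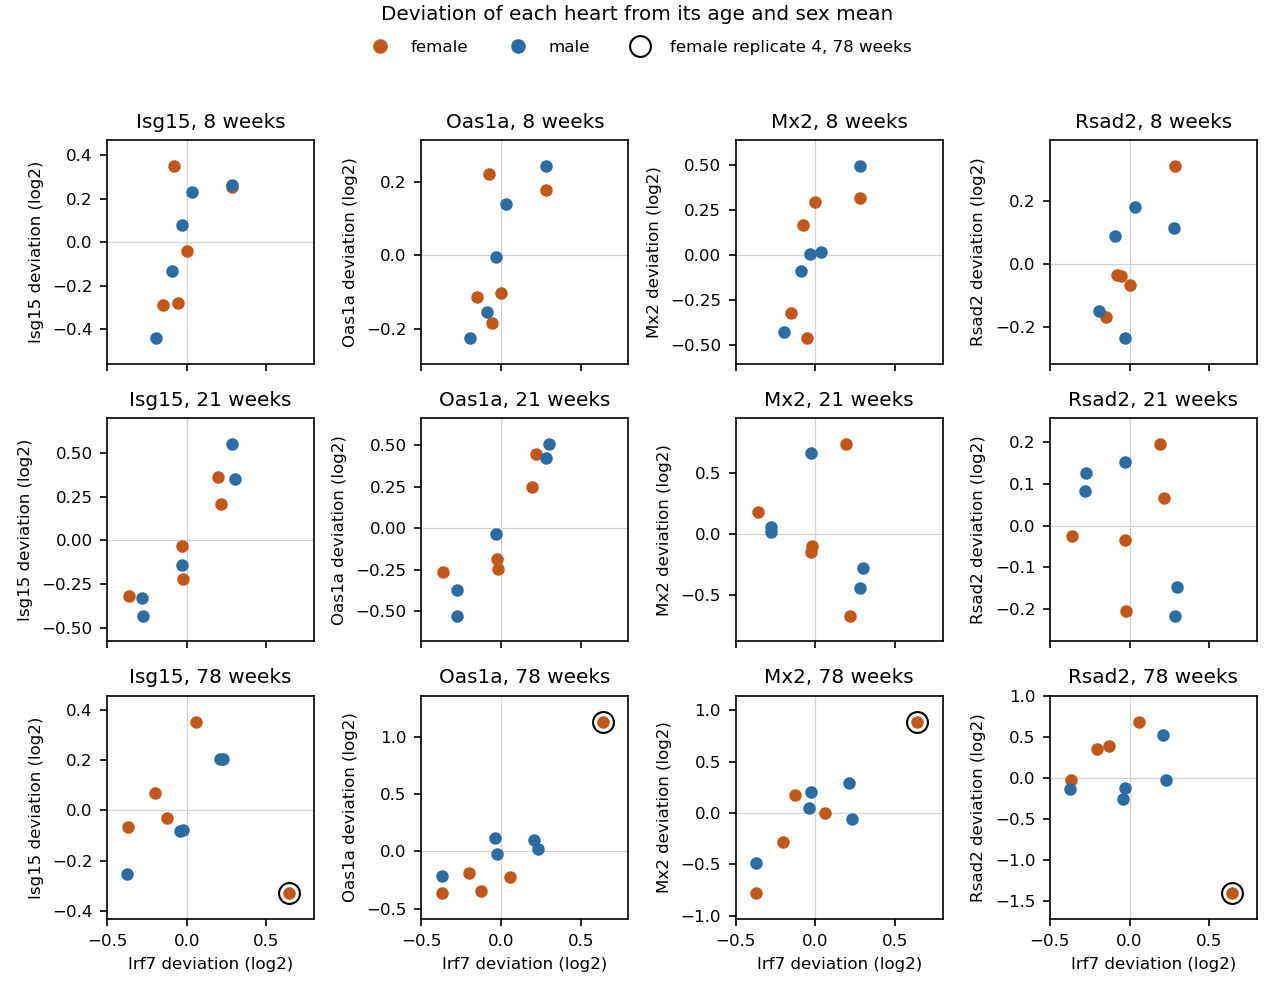
Deviation of Isg15, Oas1a, Mx2 and Rsad2 (y axis, log2) against that of Irf7 (x axis, log2) in each heart, from the mean of its age and sex, females orange and males blue. At 21 weeks Isg15 and Oas1a lie along a line with Irf7, and at 78 weeks the circled female replicate 4 is far from the others in all 4 panels.

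The probes most like the 7 genes were found from the mean of their deviations over 30 hearts. Among 20357 probes well above background on at least 15 arrays, the 8 named genes of the first 10 were Phf11b (r = 0.657), Oas1i (0.653), Ap3m1 (0.644), Ly6e (0.636), Rtp4 (0.636), Ifi44 (0.624), Mmp23 (0.610) and RT1-S3 (0.610), and 2 probes had no gene name. Oas1i, Rtp4 and Ifi44 belong to the list of other interferon-stimulated genes used here. The members gave r of 0.757 (Isg15), 0.699 (Irf7), 0.695 (Ifit3), 0.630 (Mx2), 0.570 (Oas1a), 0.257 (Ifit2) and 0.230 (Rsad2) with the mean, which each of them partly makes up.

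The rest of the pathway was followed by lists of genes. Interferon ligands were near the background: of 5 on the array, Ifng was above it on 5 arrays, Ifna4 on 1 and Ifnb1, Ifna5 and Ifnk on none. At 8 and 78 weeks, with all arrays, no gene of any list passed limma's test between the sexes. Among 43 other interferon-stimulated genes above background on at least 15 arrays, the median sex difference was -0.127 at 8 weeks, with 7 above 0, and -0.218 at 78 weeks, with 5 above 0, while the medians of all probes were 0.032 and 0.013. The 78-week median was -0.261 once the 2 arrays with opposed sex probes were left out, with 5 above 0.

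Between 8 and 78 weeks, Irf9 fell among the receptors, kinases and factors, with a change of -0.28 (limma, adjusted p = 0.0329). Of 9 sensors and adaptors, Sting1 fell (-0.65, adjusted p = 0.0295), with 7 of 30 arrays above background. Of 49 other interferon-stimulated genes on the array, 3 fell and none rose: Oas1i, a relative of Oas1a (-0.43, adjusted p = 0.0117), Bst2, which tethers budding virus (-0.41, 0.0376), and Lgals9, a galectin (-0.29, 0.0356). Negative regulators had none of 5 called. Macrophage markers were 4 of 12 called higher in old hearts (Cd163, Mrc1, C1qa and Cd68), and 3 of 7 endothelial (Cdh5, Tie1 and Emcn) and 2 of 7 fibroblast markers (Col1a1 and Col3a1) were called lower. Called or not, 2 of 6 endothelial and 3 of 7 fibroblast genes above background on at least 15 arrays had a difference above 0. Of heart muscle markers Nppa was called higher (0.46) and Pln lower (-0.40). The lymphocyte marker Cd79b, above background on 3 arrays, was called lower (-1.34). Over all probes 4.07% were called lower and 4.78% higher at this contrast. Of 6 listed dendritic cell markers on the array, Siglech, Xcr1 and Ccr7 were not above background on any array and Flt3 was on 2. Bst2 and Tcf4 were above it on all 30. The part of these cells in the changes was not tested.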

How the data were processed

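Total RNA of 30 single hearts was labelled with Cy3 and hybridised to Agilent whole rat genome arrays, 4 per slide. The submitters' processing notes name Agilent Feature Extraction. The deposited files hold spot intensity, already background corrected in the processed signal, and the authors' tables hold intensity over the 75th percentile of the array, with probes of one name averaged. No column lacked a sample or a group. The 21-week male columns of the table were used only as a group. Here outlier spots were dropped, spots of a probe averaged and log2 of the processed signal taken minus log2 of the 75th percentile.

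limma 3.58.1 (R 4.3.3; Python 3.11.15) was fitted over all non-control probes with Benjamini-Hochberg adjustment over all of them and was tested on simulated data. Sexes were compared within an age, 5 against 5 arrays. The age fit used all 30 arrays and 6 group means. Correlations were tested by exact permutation within sex (14400 orders), with adjustment over all probes in place of the 24 relations. The brightest probe stood for a gene; named genes were the members, the 10 nearest by correlation and pathway genes past the threshold. Members and lists were chosen with earlier results of these data known. At 78 weeks same-numbered hearts shared a slide and deviated together (r from 0.222 to 0.345), so numbers paired them there. Alternatives were normexp (with an offset of 50), quantile, raw median signal, dim probes left out, slide, scan day and replicate blocks, other probes, the authors' tables, the methods' t-test and leaving out arrays. The number of arrays limits the precision. A result of the pathway lists is not reported here.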

Additional observations from a re-analysis of the deposited data

Results flagged for a closer look

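In 54 sets of 5 hearts (9 genes in 6 groups), 4 values stood apart from the other 4 of their group by Dixon's criterion. Chance sets apart about 1 in 20 sets, so 4 of 54 is close to that share. Oas1a in female replicate 4 at 78 weeks was 4.05, against 2.55 to 2.73 in the others, and Mx1 in the same heart was -3.86, against -5.49 to -5.34, not above background. Rsad2 in female replicate 4 at 8 weeks was 2.23, against 1.75 to 1.88, and Rsad2 in male replicate 2 at 78 weeks was 2.53, against 1.75 to 1.97.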

How the results depend on the processing

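Of 890 alternative values, 793 were taken as unchanged. Among these, tested values of single genes kept their direction and side of the threshold, and 21-week differences moved less than the spread between hearts. Counts of probes or genes stayed close in number, whichever genes made them up. Changes of sign numbered 40, all in values of single genes, 7 of them untested 21-week differences. Counts of genes passing limma at 8 weeks were 0, and 1 (Rsad2) with normexp, raw median signal or dim probes left out. Probes passing there were 27, against 41 with dim probes left out, 9 with slide as a block, 5 with the replicate block and 8 to 21 without each array in turn. At 78 weeks 10 probes passed without the 2 arrays at odds with their labels and 8 without female replicate 4 as well, a choice made after seeing the data, and 0 to 1 without each array. For age, 3628 probes passed, against 750 with normexp, 9553 with only the 8 and 78-week arrays, 195 with slide as a block, 3505 with the replicate block and 3004 to 4513 without each array. Genes passing were 1 (Mx2), 0 with normexp or slide as a block, 2 with quantile (Mx2, Ifit2), raw median signal (Mx2, Rsad2) or slide as a random block (Mx2, Ifit2), 3 with dim probes left out (with Ifit2, Rsad2) or only these ages (with Ifit2, Isg15), and 1 to 2 without each array. Sex by age gave 2 probes with quantile, 1 with dim probes left out and 0 to 1 without each array. Higher male means at 21 weeks were 4 of 9 with normexp and 8 to 9 without each array. Genes following Irf7 at 8 weeks were 1 (Mx1) without 2 hearts and 2 with normexp. At 78 weeks without 2 hearts, Isg15 and Rsad2 followed Irf7 in place of Mx2, Oas1a and Mx1. The methods' t-test passed 18 probes at 8 weeks (2143 before adjustment) and 0 at 78 weeks (1869). The replicate block changed no other call.

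Changes of sign were as follows. At 8 weeks another Rsad2 probe gave 0.12. At 78 weeks without female replicate 4 and both odd arrays Oas1a was -0.17, Ifit2 -0.041 and Ifit3 -0.024, and without the odd arrays alone Ifit2 was -0.0095 and Ifit3 -0.11. Normexp gave 0.13 for Mx2 and -0.068 for Ifit2, quantile -0.021 for Ifit2, and another Irf7 probe 0.21. Leaving out arrays, the sex difference ran from -0.17 to 0.28 (Oas1a), -0.16 to 0.16 (Ifit2), -0.11 to 0.20 (Ifit3; -0.085 without male replicate 3), -0.49 to 0.12 (Mx2; -0.29 with single arrays left out) and -0.42 to 0.0002 (Irf7; -0.25 with single arrays left out). At 21 weeks normexp gave 0.33 (Oas1a), 0.25 (Irf7), 0.077 (Isg15), 0.10 (Rsad2) and 0.12 (Ifit2), and Ifit2 was 0.073 with the raw median signal and 0.044 without male replicate 1. For age, without the odd arrays Oas1a was 0.013 and Irf7 0.022, with slide as a block Oas1a was 0.053 and Isg15 0.027, and other probes gave 0.19 for Irf7 and 0.42 and 0.22 for Rsad2. Without each array the age difference ran from -0.18 to 0.0034 (Oas1a) and -0.097 to 0.030 (Irf7). The causes were not tested. Dim probes limit Oasl, Mx1 and Ifit3. Mx2 was also low, with a mean level of -1.95 over the 30 arrays. With normexp its age difference was -0.12, in place of -0.91.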
